A study of Rattus norvegicus with 6 samples.

Results

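The chemokine genes Cxcl9, Cxcl10, Cxcl11, Cxcl13 and Ccl6 were followed across all 6 arrays of a rat spinal cord series. They are 5 of the 12978 genes with a named probe, and 5 of the 8752 with a probe detected on at least 1 array. The genes were chosen with their levels on these arrays in view, so the differences between mutant and wild-type (WT) pools are given for them as a description, with no test. Each has 1 probe, and all 5 probes were detected on all 6 arrays with a detection p of 0.

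The animals were female Sprague-Dawley rats that carried the G93A mutant SOD1 gene, a cause of familial amyotrophic lateral sclerosis, and WT littermates. RNA of 5 rats was pooled for each combination of genotype and stage (presymptomatic, disease onset or end stage) and hybridised to 1 Illumina BeadChip array, so each group is 1 pool and 30 rats entered in all. WT pools were matched to the mutant stages by age and carry no disease of their own. Every sample is labelled as 10 weeks old, although the study's design ties that age to presymptomatic rats only, and the labels place the tissue in both lumbar and thoracic cord. With 1 pool a group, the spread between rats of a group was not measured.

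Chemokines are small secreted proteins that attract leukocytes through receptors coupled to G proteins. Cxcl9, Cxcl10 and Cxcl11 are induced by interferon gamma and share the receptor Cxcr3, found on activated T cells and NK cells, while Cxcl13 attracts B cells and follicular helper T cells through Cxcr5. Ccl6 is a rodent chemokine of the CC family made by myeloid cells, which in mouse binds Ccr1.

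Cxcl11, Cxcl10 and Cxcl9 lie next to each other on rat chromosome 14 in the RefSeq table of the GRCr8 assembly. Their promoters (250 bases before to 50 after the start, plus strand, RefSeq GRCr8) are printed because these 3 neighbours were all higher in the symptomatic mutant pools. Capitals mark matches to the 3 motifs searched on both strands: GAS, the interferon gamma-activated sequence TTCNNNGAA, the core of the interferon-stimulated response element (ISRE), GAAA, any 2 bases and GAAA, and the κB consensus, by its name alone.
Cxcl9: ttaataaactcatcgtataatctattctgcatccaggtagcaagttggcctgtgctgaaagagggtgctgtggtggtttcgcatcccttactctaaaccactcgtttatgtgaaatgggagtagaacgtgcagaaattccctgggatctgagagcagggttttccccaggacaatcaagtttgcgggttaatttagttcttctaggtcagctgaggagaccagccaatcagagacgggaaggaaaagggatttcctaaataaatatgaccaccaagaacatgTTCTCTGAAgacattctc
Cxcl10: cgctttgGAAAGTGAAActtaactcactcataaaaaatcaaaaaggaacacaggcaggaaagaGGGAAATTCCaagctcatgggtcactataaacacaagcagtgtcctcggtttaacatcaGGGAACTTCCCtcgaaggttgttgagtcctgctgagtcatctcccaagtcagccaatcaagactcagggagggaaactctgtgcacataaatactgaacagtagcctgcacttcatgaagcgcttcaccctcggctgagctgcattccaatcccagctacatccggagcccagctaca
Cxcl11: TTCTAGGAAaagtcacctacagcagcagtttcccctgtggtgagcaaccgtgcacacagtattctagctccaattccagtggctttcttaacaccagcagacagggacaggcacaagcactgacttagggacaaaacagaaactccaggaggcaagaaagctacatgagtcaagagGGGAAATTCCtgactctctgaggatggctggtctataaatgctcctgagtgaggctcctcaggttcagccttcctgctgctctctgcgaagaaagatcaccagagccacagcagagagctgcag

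Cxcl9 (chr14:16006916-16007215) holds a GAS match at bases 283 to 291, counted from the start of the printed window. That match lies in the 50 bases after the gene's start, not upstream of it. Cxcl10 (chr14:15988816-15989115) holds an ISRE core at bases 8 to 17 and κB matches at 64 to 73 and 123 to 132. The last overlaps a match on the other strand at 124 to 133. Cxcl11 (chr14:15973478-15973777) holds a GAS match at bases 1 to 9 and a κB match at 177 to 186. The windows of Cxcl13, also on chromosome 14, and Ccl6, on chromosome 10, hold none of these letters. Among 33469 rat promoter windows of this length, 8.87% hold GAS, 3.92% the ISRE core and 7.51% the κB consensus, against 2, 1 and 2 of the 5 chemokines.

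Cxcl9, an attractant of T cells, gave deposited intensities of 104, 175 and 78.4 in the presymptomatic, onset and end-stage WT pools. The mutant pools gave 154, 1159 and 1675 in the same order. The onset and end-stage mutant pools lay far above the other 4, and the presymptomatic mutant pool lay within the WT values in intensity. After normalization Cxcl9 was 0.88, 2.80 and 4.07 higher on the log2 scale in the mutant than in the WT pool of the same stage, or 1.84-, 6.97- and 16.8-fold. The end-stage difference was the 8th largest of 7942 genes compared and the onset difference the 16th of 7940, ranks that only describe how the gene was chosen.

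Cxcl10, which attracts the same cells, gave intensities of 74.7, 190 and 68.8 in the WT pools and 112, 531 and 392 in the mutant pools. Both symptomatic mutant pools exceeded the rest, with the higher value at onset. The mutant was 1.92-, 2.86- and 4.45-fold higher than the WT pool of the same stage. Against the highest WT pool, that of onset, the end-stage excess was 2.16-fold, and the presymptomatic mutant pool was lower by a log2 difference of -0.23.

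Cxcl11, the Cxcr3 ligand of highest affinity, gave 138, 149 and 56.0 in the WT pools and 172, 676 and 723 in the mutant pools. All 3 mutant pools lay above all 3 WT pools. The folds at matched stages were 1.54, 4.65 and 9.65, and the end-stage pool stood 5.03-fold above the highest WT pool.

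Cxcl13, the B cell attractant of lymphoid follicles, gave 23.4, 170 and 68.0 in the WT pools and 53.0, 1311 and 1337 in the mutant pools. The symptomatic mutant pools were again the highest, whereas the presymptomatic mutant pool was below the onset and end-stage WT pools. The folds at matched stages were 2.55, 8.07 and 14.9. The presymptomatic WT value was dim, at 3.05 times the noise SD of its array. Under the neqc background correction the presymptomatic log2 difference was 0.22, against 1.35 here. Against the highest WT pool the end-stage excess was 7.95-fold and the presymptomatic log2 difference was -0.91, so the presymptomatic direction depended on which WT pool was used.

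Ccl6, the CC member, gave 33.4, 41.3 and 21.6 in the WT pools and 22.2, 89.6 and 96.4 in the mutant pools. The symptomatic mutant pools were the highest and the probe was dim, with WT intensities 2.40 to 5.12 times the noise SD of their arrays. The normalized folds at matched stages were 1.16, 1.79 and 2.86. The presymptomatic direction is unsettled, since the deposited intensity was lower in the mutant (ratio 0.665) and the log2 difference was -0.03 after scaling to the 75th percentile. Under the neqc background correction, which compresses dim probes, the log2 differences were 0.16 at onset and 0.30 at end stage, against 0.84 and 1.52 here.

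**Figure D1:**
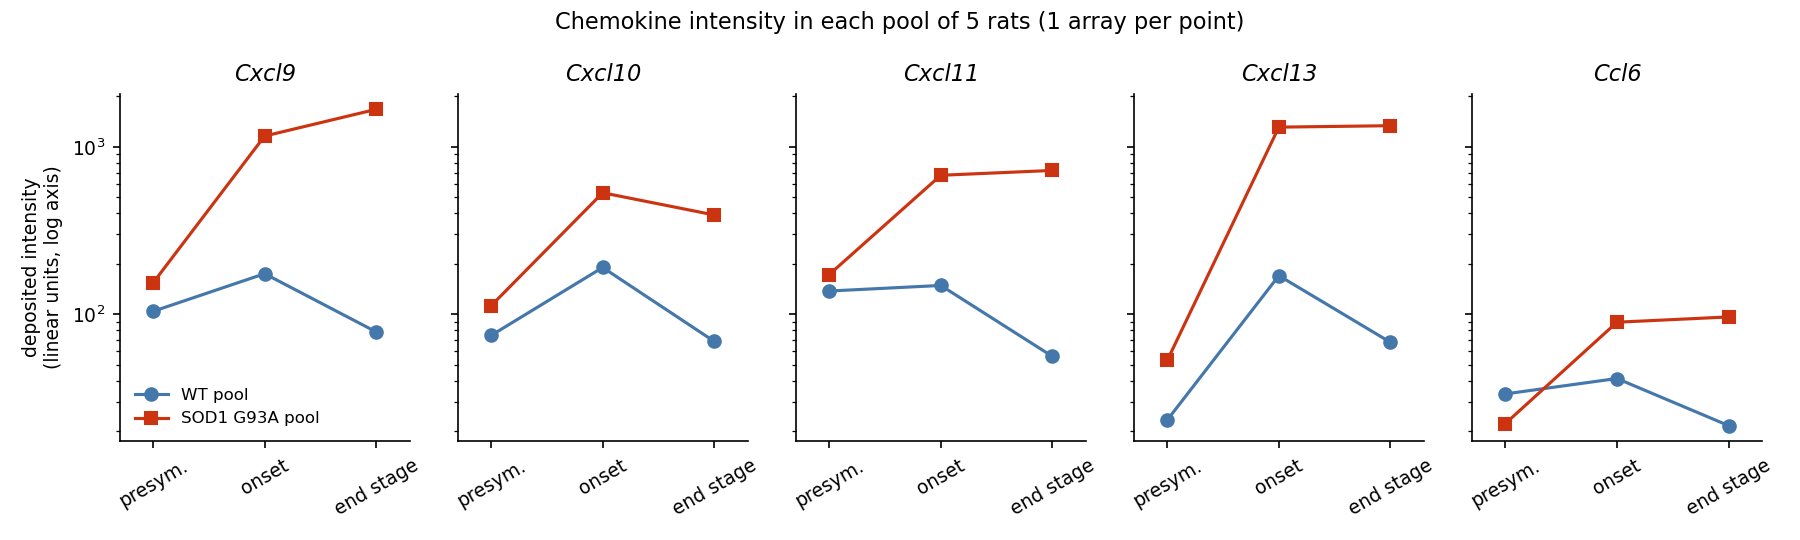
Deposited intensity (linear values on a log axis) of the 5 chemokines in each pool of 5 rats, by stage, with WT and mutant pools marked apart and 1 array behind each point. The onset and end-stage mutant points lie above the other 4 in every panel, for example 1159 and 1675 against at most 175 for Cxcl9.

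All 5 genes were thus highest in the onset and end-stage mutant pools. Of all genes tested, 13.8% showed that order, and nothing is read from this count because the genes were chosen on it. Both symptomatic pools exceeded the 3 WT pools for 5 of 5 members (17.6% of all genes), and by at least 2-fold over the highest WT pool for 4 of 5 (2.03%), with Ccl6 the exception. After normalization all 3 mutant pools exceeded all 3 WT pools for Cxcl9, Cxcl11 and Ccl6 (8.11% of all genes), whereas in deposited intensity this held for Cxcl11 alone. At least 2-fold higher than the WT pool of the same stage were 5 of 5 genes at end stage (6.91% of all genes), 4 of 5 at onset (3.63%) and 1 of 5, Cxcl13, before symptoms (2.71%). None of the 5 was at least 2-fold lower at any stage (3.4% of all genes at end stage, 0.579% at onset and 8.19% before symptoms). Ccl6 was the member under 2-fold at onset, at 1.79, and Cxcl10 had the smallest fold of the members past 2-fold, at 2.86. The presymptomatic mutant pool exceeded all WT pools for the same 3 genes (37.5% of all genes).

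Most of the rise between mutant stages fell between the presymptomatic and onset pools. Over that step Cxcl13 was 15.2-fold higher, Cxcl9 5.83-fold, Cxcl10 3.35-fold, Cxcl11 3.01-fold and Ccl6 1.74-fold. A 2-fold higher level over this step was met by 9.45% of all genes. From onset to end stage the log2 differences were 0.49 for Cxcl9, 0.38 for Ccl6, 0.12 for Cxcl11, -0.02 for Cxcl13 and -0.40 for Cxcl10. Of these only that of Ccl6 exceeded the range of the 3 WT pools for its gene, 0.30. None of the 5 differed by 2-fold over this step, which 1.49% of all genes did upward and 3.4% downward. The larger differences from WT at end stage than at onset came with WT levels that were lower at end stage for all 5 genes, by 0.78, 1.04, 0.93, 0.91 and 0.30 (Cxcl9, Cxcl10, Cxcl11, Cxcl13 and Ccl6).

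The WT pools varied most for Cxcl13, with a log2 range of 2.26, or 4.80-fold, its lowest being the dim presymptomatic value. The ranges were 1.17 for Cxcl10, 0.94 for Cxcl11, 0.78 for Cxcl9 and 0.30 for Ccl6. WT pools at least 2-fold apart were found for 5.06% of all genes. After normalization the onset WT pool was the highest WT pool for 4 of 5 members (30.5% of all genes), and for Cxcl11 it lay just under the presymptomatic WT pool. It was at least 2-fold above the end-stage WT pool for 1 of 5, Cxcl10 (1.62% of all genes), and above the presymptomatic WT pool for 2 of 5, Cxcl10 and Cxcl13 (0.994%).

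**Figure D2:**
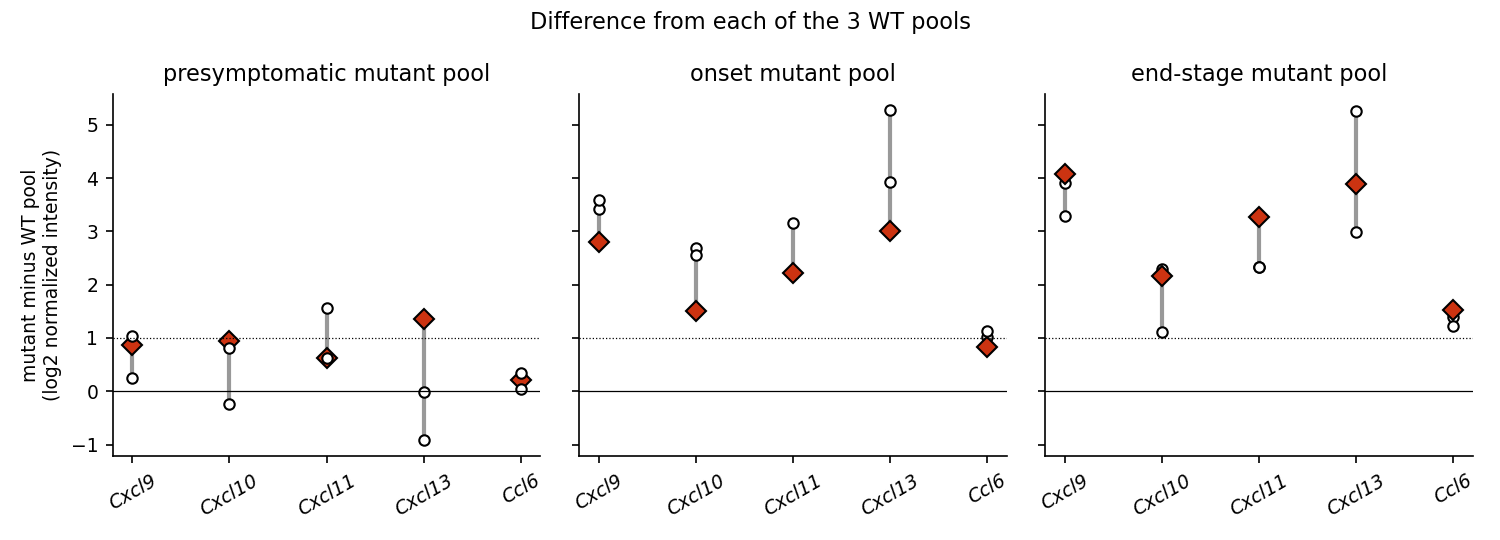
Log2 differences of normalized intensity between the mutant and WT pool of the same stage for each chemokine, 1 pool a group, beside the spread of the 3 WT pools. At end stage they run from 1.52 for Ccl6 to 4.07 for Cxcl9, and before symptoms from 0.22 to 1.35.

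The profiles over 6 arrays were compared after centring each gene, by the root-mean-square (RMS) log2 difference. The nearest pair was Cxcl10 and Cxcl11 at 0.48, and the farthest Cxcl13 and Ccl6 at 1.498. Outside the members, the nearest genes to Cxcl10 were Sox4 at 0.19, Irf7 at 0.22 and Mx1 at 0.24, then Gas7 and Tspo at 0.25 and 0.26. Irf7 and Mx1 are interferon-responsive genes. The nearest to Cxcl9 were Ifitm1 at 0.17, Cthrc1 at 0.18, Hk3 at 0.22, Thbs2 at 0.25 and Atf3 at 0.27. The nearest to Cxcl11 were Ccl2 at 0.32, Cdk1 and Cxadr at 0.33, Gas7 at 0.34 and Timp1 at 0.36. Cxcl13 had no gene nearer than 0.47, with Folr2, Atf3, Cd68, Fcrl2 and Ngfr between 0.47 and 0.55. Ccl6 lay nearest to Pros1 at 0.08, Ltbp1 at 0.09, and Mxd3, Rbm47 and Olfml2b at 0.10, in a profile of smaller amplitude.

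The measured genes flanking the chromosome 14 trio did not share its size of change. Art3, directly beside Cxcl11, and Ccl9, directly beside Ccl6, had no named probe on the array. At end stage the log2 differences were 0.29 for Nup54 and 0.15 for Scarb2 on the Cxcl11 side, and 0.33 for Sdad1 and 0.51 for Naaa on the Cxcl9 side. At onset they were 0.25, 0.76, 0.08 and 0.71. Near Ccl6, Ccl5 differed by 0.03 at end stage, while Ccl3 and Ccl4, not detected in the end-stage WT pool, were at least 2.48- and 2.38-fold higher.

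The receptors were followed next. Cxcr3, the receptor of Cxcl9, Cxcl10 and Cxcl11, was detected only in the onset and end-stage mutant pools, with intensities of 30.3 and 23.3. The other 4 pools gave 4.82, 8.67 and 0.573 (WT) and 5.94 (presymptomatic mutant), none detected. Against the matched WT pools, Cxcr3 was at least 1.36-fold higher at onset and at least 1.72-fold higher at end stage. These bounds set the dim pool at the lowest signal detected on its array. By limma, with the 3 WT pools as 1 group against 1 mutant pool and Benjamini-Hochberg adjustment over 12711 probes, the adjusted p was 0.0934 at end stage and 0.306 at onset. Cxcr5, the receptor of Cxcl13, was not detected on any array. Ackr3, a scavenger of Cxcl11 and Cxcl12, gave 121, 130 and 77.4 in WT and 141, 177 and 263 in mutant pools, a limma log2 difference of 1.23 ± 0.26 (SE) at end stage with an adjusted p of 0.0573.

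**Figure D3:**
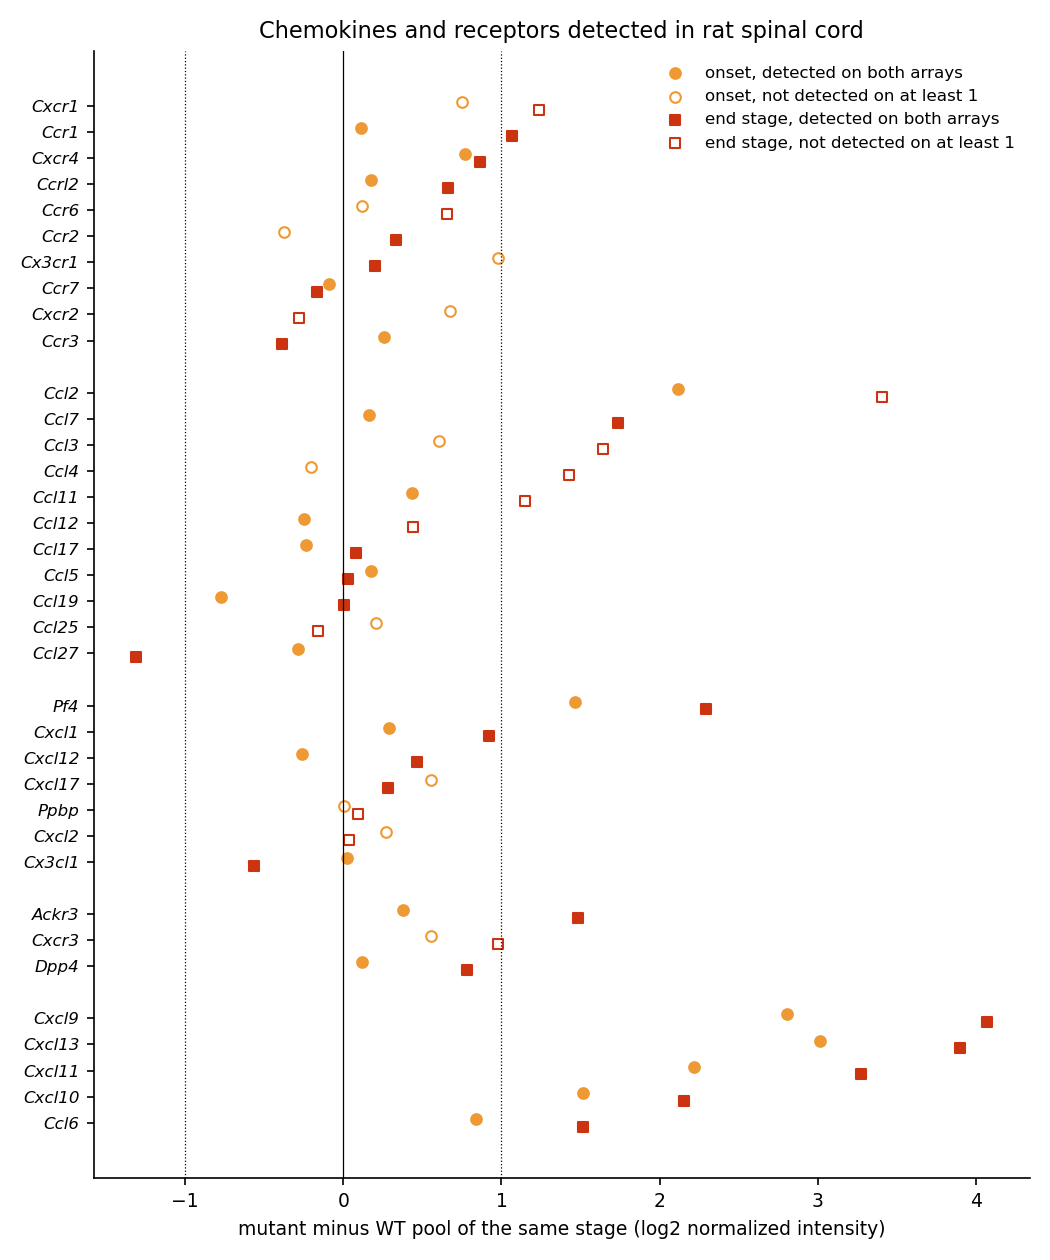
Mutant minus WT log2 difference of normalized intensity for the chemokines and receptors detected in cord, at onset and end stage, 1 pool a group, with open symbols where an array did not detect the probe. The 5 chemokines lie at the bottom, with 4 of 5 past 1 (2-fold) at onset, where Ccl2 and Pf4 are the only other genes past it.

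Among the other chemokines and receptors, 31 of 45 genes on the array had a detected probe. By limma, 4 were higher at end stage with adjusted p under 0.05 and 0 were lower (3.16% and 0.537% of all genes), with 13 and 0 at unadjusted p under 0.05 (11.9% and 9.84% of all genes). At onset 1 was higher and 0 lower (0.811% and 0% of all genes), with 8 and 0 unadjusted (7.8% and 5.24%). The median difference at matched stages was 0.46 at end stage and 0.17 at onset, against -0.04 and -0.03 over all genes.

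Ccl2, the monocyte attractant, gave 20.2, 47.8 and 10.8 in WT pools and 26.4, 243 and 275 in mutant pools. It was higher at both symptomatic stages, with a limma log2 difference of 3.00 ± 0.39 (SE, adjusted p = 0.0141) at end stage and 2.69 ± 0.39 (adjusted p = 0.0381) at onset. Ccl2 was not detected in the end-stage WT pool, so the end-stage fold of 10.6 rests on an undetected WT signal and is no bound. Pf4, the platelet and macrophage chemokine Cxcl4, gave 561, 546 and 412 in WT and 504, 1444 and 2138 in mutant pools, higher by 2.09 ± 0.25 (limma adjusted p = 0.0118) at end stage. Ccl3, an attractant of monocytes and T cells, was detected only in the symptomatic mutant pools, at 31.8 and 42.0, and was at least 2.48-fold higher at end stage (limma adjusted p = 0.0310). Cxcr1, a receptor for neutrophil attractants, was likewise detected only there, at 27.8 and 35.2, and at least 2.20-fold higher at end stage (limma adjusted p = 0.0355).

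The remaining named genes did not pass the limma test. Ccl7 and Ccr1, the receptor of Ccl6 in mouse, had end-stage log2 differences at matched stages of 1.73 and 1.06, with adjusted p of 0.130 and 0.0900. Ccl4 was at least 2.38-fold above an end-stage WT pool in which it was not detected, with an adjusted p of 0.0648. All 4 end-stage calls and the onset call were lost without the onset WT pool. Without it the limma adjusted p was 0.0668 for Ccl2, 0.0943 for Pf4, 0.112 for Ccl3 and 0.137 for Cxcr1, and 0.108 for Ccl2 at onset. The onset call of Ccl2 was also lost without the presymptomatic WT pool (0.0578) or the end-stage WT pool (0.0647), and that of Cxcr1 without the presymptomatic WT pool (0.0554). Over 10 alternatives, these fits without 1 WT pool included, the end-stage limma adjusted p ran from 4.89e-04 to 0.0883 for Ccl2 and 9.13e-04 to 0.0943 for Pf4. It ran from 0.00884 to 0.202 for Ccl3 and 0.0113 to 0.211 for Cxcr1, and at onset from 0.00380 to 0.205 for Ccl2. The highest value of Pf4 is the one without the onset WT pool. The limma log2 differences of the dim probes of Ccl3 and Cxcr1 were 0.17 and 0.14 under neqc, and that of Ccl2 at end stage 1.13.

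Upstream of these ligands, 20 of 24 interferon and NF-κB signalling genes on the array were detected. At end stage 3 of 20 were higher by limma and 0 lower, against 3.16% and 0.537% of all genes. At unadjusted p under 0.05 they were 10 and 1, against 11.9% and 9.84%. At onset 0 were called in either direction by limma, against 0.811% and 0% of all genes, with 9 and 0 unadjusted, against 7.8% and 5.24%. Ifngr1, the ligand-binding chain of the interferon gamma receptor, gave 523, 587 and 517 in WT and 387, 1283 and 1239 in mutant pools. Its end-stage log2 difference was 1.19 ± 0.22 (SE, limma adjusted p = 0.0434). Tnfrsf1a, the main TNF receptor, was higher by 1.48 (limma adjusted p = 0.0307) and Tlr2, a sensor of bacterial lipoproteins, by 1.48 (limma adjusted p = 0.0310). These 3 calls too were lost without the onset WT pool, with limma adjusted p of 0.139, 0.129 and 0.119, and that of Ifngr1 also without the presymptomatic (0.0761) or end-stage WT pool (0.0550). Over 10 alternatives, these fits included, the limma adjusted p ran from 0.0135 to 0.139 for Ifngr1, 0.00893 to 0.129 for Tnfrsf1a and 0.00858 to 0.119 for Tlr2. For each gene the highest value is the one without the onset WT pool.

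Irf7, a transcription factor of the interferon response, gave 92.1, 199 and 83.5 in WT and 120, 437 and 322 in mutant pools, with the onset pools highest in both genotypes. Its end-stage limma adjusted p was 0.110. Irf5, a related factor, had an adjusted p of 0.117. Ifng, Ifnb1, Socs1 and Tnf were not detected on any array.

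Of the cytokines and adhesion molecules of lymphoid organs, 7 of 10 on the array were detected, with 0 called by limma in either direction at end stage or onset (4 and 0 unadjusted at each). Over all genes the unadjusted shares higher were 11.9% at end stage and 7.8% at onset. The largest were Icam1, the leukocyte adhesion molecule, and Il21r, the receptor of a T cell cytokine. Their end-stage log2 differences were 1.58 and 1.01, with limma adjusted p of 0.0940 and 0.0615. Lta, Il7r and Il21 were not detected on any array.

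Marker lists of cells that make or follow chemokines were summed on the same arrays. The summed intensity of the 5 chemokines was 293 to 725 in the WT pools, 514 in the presymptomatic mutant pool, and 3767 and 4222 at onset and end stage. The 16 microglia and macrophage markers summed to 5561 to 6765 in WT, 6169 before symptoms, and 25317 and 27218 at onset and end stage, with 10 of 16 called higher by limma at end stage and 7 of 16 at onset (3.16% and 0.811% of all genes). The 15 of 19 T and NK cell markers detected summed to 189 to 316 in WT, 266 before symptoms, and 548 and 696 later. Cd8a and Cd8b gave 112 and 64.8 of the onset sum, and 197 and 90.7 of the end-stage sum. The T cell genes Cd3d and Cd3g, detected on all 6 arrays, differed less at matched stages. Each was 1.11-fold higher at onset, and they were 1.46- and 1.88-fold higher at end stage. The median log2 difference of the 15 genes at matched stages was 0.06 at onset and 0.55 at end stage, against -0.03 and -0.04 over all genes. Of these, 2 of 15, Cd8a and Cd8b, were called higher by limma at both symptomatic stages, at least 8.53- and 4.39-fold at end stage (adjusted p of 0.00580 and 0.00706), while Cd3e, Cd4, Cd5 and Klrd1 were not detected on any array. These marker calls were lost without the onset WT pool, where limma called 0 of the probes at end stage or onset.

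The 4 of 6 B and plasma cell markers detected summed to 34.4 to 76.2 in WT and 23.5 to 57.0 in mutant pools. At end stage 0 were called by limma (1 higher unadjusted), against 3.16% of all genes called higher and 11.9% unadjusted. Sdc1, the plasma cell marker, gave 43.9 of the end-stage mutant sum of 57.0. Cd22 and Blk were not detected. Of the neutrophil markers 5 of 9 were detected, without Ltf, S100a9, Csf3r and Mmp8. Their WT and mutant sums were 1763 and 730 before symptoms, 412 and 423 at onset, and 281 and 997 at end stage. The median log2 differences at matched stages were -0.97, -0.07 and 1.19 in that order, against 0.07, -0.03 and -0.04 over all genes. Endothelial markers (5 of 6 detected) summed to 5049 to 7087 in WT and 5166 to 6334 in mutant pools. In pooled tissue, more cells of a type and more RNA per cell cannot be told apart, and the part of these cell types in the chemokine differences was not tested.

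**Figure D4:**
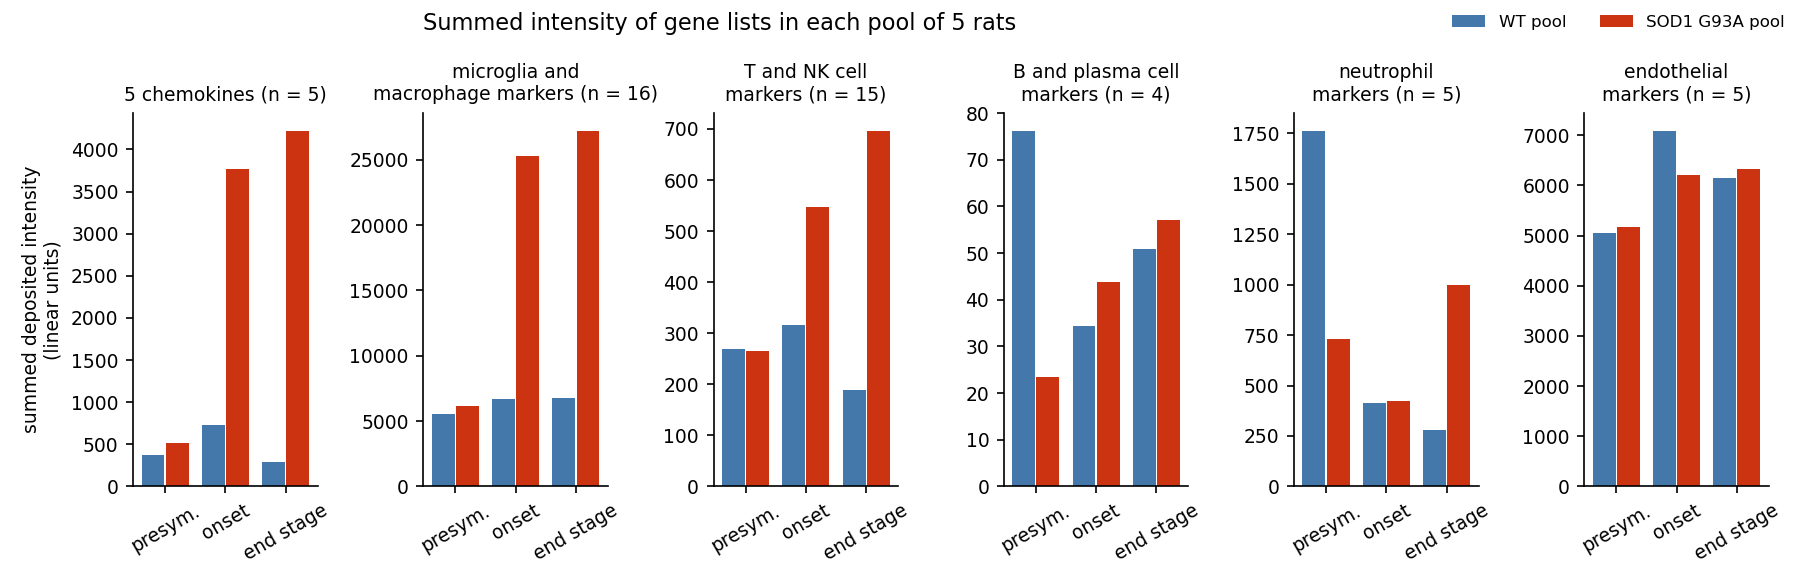
Summed deposited intensity (linear, each panel on its own axis from 0) of the 5 chemokines and of marker lists in each pool of 5 rats, by stage. The microglia and macrophage sum rises from at most 6765 in WT to 27218 in the end-stage mutant pool, while the B and plasma cell sum stays at 76.2 or less.

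As for the arrays themselves, 9116 to 10942 of 22226 probes were detected per array, and mean intensities were 331 to 332. The presymptomatic mutant array had the fewest detected probes, and 8.19% of genes were at least 2-fold lower there than in its WT pool. Most probes that limma called for this array against the 3 WT pools were lower, whereas most called at onset and end stage were higher. Markers of nervous tissue were present, with 6 of 7 neuron, 6 of 6 astrocyte and 6 of 7 oligodendrocyte markers detected on all arrays. Markers particular to spinal cord were not analysed here. Skeletal muscle markers summed to 3329 to 7926 in WT and 1437 to 4728 in mutant pools, lowest at end stage. The rat Sod1 probe gave 6923, 7300 and 8822 in WT and 8864, 7417 and 7446 in mutant pools, and whether it also measures the transgene was not analysed here. Over all probes, limma called 336 higher and 76 lower at end stage (520 and 311 after scaling to the 75th percentile), and 87 and 0 at onset (91 and 44 on the authors' normalized values).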

How the data were processed

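The deposited intensity is linear and, since values below 0 occur and array means lie at 331 to 332, was background-subtracted and scaled by the authors. The deposited detection p-value stands beside each intensity, from BeadStudio 3.2.6 per the submitters' processing notes. The authors' normalized intensity, of unstated method, served as an alternative, and its array medians were 4.41 to 19.8. No probe depth is defined for arrays, and their number, 6, limits precision.

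The deposited probe IDs were out of order. Sorted as text and set against the rows, probes of sensory receptors were detected on all arrays for 2.76% (6 of 217) and those of ribosomal, respiratory and proteasome genes for 87.7% (142 of 162). As deposited, the shares were 36.9% and 44.4%. All gene names rest on this step. Symbols came from the platform annotation (13192 of 22226 probes have 1, 0 have several, 9034 are unnamed here), of which 13151 matched the GRCr8 RefSeq table.

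Background was corrected with limma 3.58.1 (R 4.3.3) by normexp, with noise estimated by regressing intensity on the detection p between 0.05 and 0.95 (noise SD 6.52 to 8.46), an offset of 16, quantile normalization and log2. neqc was kept as an alternative because it took signal of already subtracted values for noise (lowest value 6.62 against 4.20 here). Probes with detection p under 0.01 on at least 1 array were kept (12711), and a gene was its brightest kept probe. Folds at matched stages are 1 pool against 1 and have no test. limma (lmFit, eBayes, two-sided) compared each mutant pool with the 3 WT pools as 1 group, with 2 residual degrees of freedom, which treats 3 stages of WT rats as replicates and the lone mutant pool as varying like them. A fit of genotype with stage as a block was also run. P-values were adjusted over all 12711 probes with a threshold of 0.05.

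Named genes were the members, Cxcr3 and Cxcr5, every listed gene called by limma, up to 4 per list with the largest differences of at least 2-fold, and the 5 nearest profiles per member. Members and lists were chosen with earlier results of these data known.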

Additional observations from a re-analysis of the deposited data

Results flagged for a closer look

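Ifngr1, a gene of the interferon gamma receptor, differed in direction between stages. The log2 difference of the mutant from the WT pool was 1.21 at onset and -0.23 before symptoms, where its 3 WT pools spanned 0.13. Against the 3 WT pools the presymptomatic limma log2 difference was -0.30 ± 0.22 (SE), from 1 mutant array, the one with the fewest detected probes. The difference between the stages was not tested.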

How the results depend on the processing

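At onset and end stage the 5 chemokines kept a higher mutant level under every normalization and WT reference tried, with log2 ranges at end stage of 3.29 to 4.12 (Cxcl9), 1.11 to 2.28 (Cxcl10), 2.33 to 3.32 (Cxcl11), 2.99 to 5.26 (Cxcl13) and 0.30 to 1.54 (Ccl6), the lowest of Ccl6 under neqc. With probe IDs as deposited the differences turned for Cxcl9 (-0.92, -0.63 and -0.23 before symptoms, at onset and end stage), Cxcl13 (-0.79, -0.26 and -0.21) and Ccl6 at onset (-0.013), and 1, 1 and 0 members were 2-fold higher at end stage, onset and before symptoms. Before symptoms, Cxcl10 turned to -0.23 against the onset WT pool, Cxcl13 to -0.91 and -0.0056 against the onset and end-stage WT pools, and Ccl6 to -0.027 with the 75th-percentile shift. The 1 presymptomatic member past 2-fold became 0 with the mean of the WT pools, neqc or an offset of 50.

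Of 412 probes called at end stage, 87 at onset, 261 before symptoms and 0 for genotype, the counts were 831, 180, 427 and 1 with the 75th-percentile shift. They were 208, 135 and 155 (end stage, onset, presymptomatic) on the authors' normalized values, 213, 0 and 0 with neqc, 53, 0 and 16 without the filter, and 247, 25 and 67 with an offset of 50. A trended robust prior gave 811 at end stage and 194 at onset. Leaving out 1 WT pool gave 0 to 534, 0 to 49 and 0 to 470, with 0 each time without the onset WT pool. Leaving out both pools of 1 stage gave 0 to 547 for genotype, with 39 without onset and 547 without the presymptomatic pools. Genotype called 0 probes with stage as a block (1368 at unadjusted p under 0.05, limma) and 0 without the replicate block. Normalizing without the presymptomatic mutant array, an alternative chosen after seeing the data, gave 411 and 87 probes, and 5 and 4 members past 2-fold, at end stage and onset.

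Of the alternatives for single members, 96 moved a difference by less than the spread of the WT pools, 35 by more and 11 turned it. The 96 include the mean of kept probes, which equals the main value because each member has 1 probe. The probe IDs as deposited are also counted, and their turned differences are among the 11. The counts are therefore no measure of how stable the differences are. Dim probes (Ccl6, Ccl3, Cxcr1, Cxcr3, and Cxcl13 in the presymptomatic WT pool) are limited by signal over background. The causes of these changes were not tested.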
